A study of Sus scrofa with 6 samples.

Results

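Nuclear transfer embryos injected with an antibody against DJ-1 were compared with embryos injected with control IgG, within each of 2 trials, by 4 of the series' 6 arrays. The arrays were chosen by their titles, 2 for anti-DJ1 embryos and 2 for IgG embryos, and each anti-DJ1 array was set against the IgG array of its own trial. A difference was used when it had the same sign in both trials. The series addresses what DJ-1 does in the early development of pig embryos made by nuclear transfer, in which the nucleus of a cultured cell is placed in an oocyte. By the labels, the groups differed only in the antibody injected. Their nuclei came from cultured fibroblasts of an adult Meishan pig, their oocytes from a slaughterhouse, and their culture medium was PZM-3. They were collected 28 h after transfer, when many embryos had just divided for the first time, in pools of 23 to 26 embryos, and 50 ng of RNA from each pool was labelled for the Affymetrix Porcine Genome Array. The 2 trials used biologically different pools, so n = 2 per group, and each value is a mean over embryos that need not have been at one stage. The dose of antibody and the fall of the protein were not analysed here. The other 2 arrays, non-injected embryos and the donor fibroblasts (1 array each, run with trial 1), entered no comparison and appear below only as single values.

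DJ-1, encoded by PARK7, is a small protein whose reactive cysteine is oxidised under oxidative stress. It is known to shield cells from peroxide, to act with PINK1 and parkin at mitochondria, to favour survival signalling through AKT, to restrain the death kinase ASK1 and to influence NRF2 and p53. An embryo at this age lives mainly on RNA stored in the oocyte, because its own genome is not yet broadly transcribed. An antibody acts on the protein, so differences in transcripts are a downstream readout.

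All 8 measured oocyte markers (among them the zona pellucida genes ZP2 and ZP3 and the growth factor BMP15) exceeded the highest Tag control of the array on all 4 arrays. Tag controls are probe sets with no pig target and served here as the mark of background. The summed signal of these oocyte markers was 49936 and 52991 in anti-DJ1 embryos of trials 1 and 2, 44635 and 57369 in IgG embryos, and 218 in the donor fibroblasts. Signals are MAS5 values on a linear scale, and each array had the same trimmed mean. Between 58.3% and 71.0% of 23999 probe sets lay above the highest Tag control, the most on the IgG array of trial 1, whose Tag control was the lowest (21.4, against 33.3 to 45.7 on the other 3 arrays). EF1A is probed at both ends, and its ratio of 3′ to 5′ signal grows as labelled RNA gets shorter. It was 24.2 and 23.9 in trial 1 and 8.20 and 9.34 in trial 2, for anti-DJ1 and IgG embryos in that order. It differed between trials far more than between the antibodies.

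Of 14399 probe sets tested, 1 was higher in anti-DJ1 embryos (0.00694%) and 0 were lower (0%) at a Benjamini-Hochberg adjusted p under 0.05 in limma, a linear model with moderated variances and the trial as a term. At an unadjusted p under 0.05 there were 830 probe sets (5.76%), where 720 (5%) would be expected with no difference. Log2 changes are of signal + 4.57 throughout, anti-DJ1 over IgG, with the standard error (SE) of the fit, and they understate the change of dim probe sets. In sign the 2 trials coincided for 7402 of the 14399 probe sets (51.4%), 3516 higher and 3886 lower in anti-DJ1 embryos in both. By gene, with the brightest probe set standing for each, 1286 of 5205 genes were higher in both trials (24.7%), 1448 were lower in both (27.8%) and 2471 had opposite signs. With a change of at least 2-fold required, 17 probe sets were higher in both trials (0.118%), 23 were lower in both (0.16%) and 43 went opposite ways. At 1.5-fold the counts were 136 higher (0.945%), 135 lower (0.938%) and 242 opposite. Counts in the same direction were thus close to counts in opposite directions at both sizes.

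**Figure D1:**
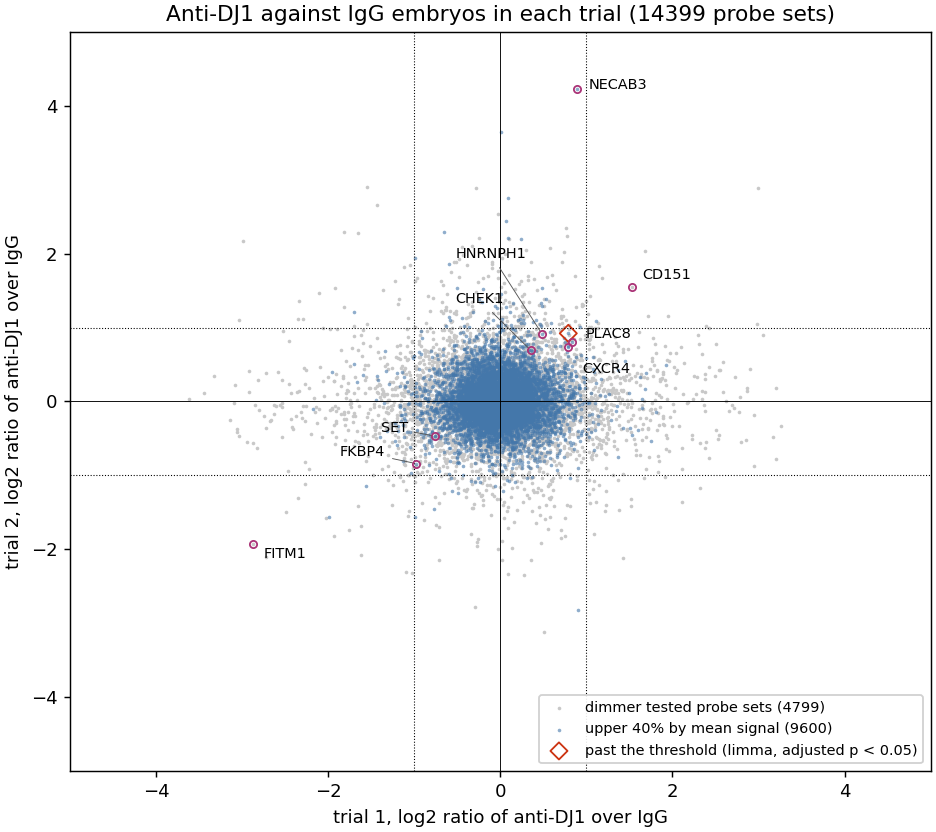
Log2 ratio of anti-DJ1 over IgG embryos in trial 1 (horizontal axis) and trial 2 (vertical axis), 1 point per tested probe set, with the upper 40% by mean signal in blue, the dimmer ones in grey, circles on named genes and dotted lines at 2-fold. The cloud is centred near 0, and the diamond marks Ssc.7628.1.A1_at, the 1 probe set past the threshold.

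The trials themselves differed more than the antibodies. Between trial 2 and trial 1, 1009 probe sets differed at least 2-fold in the same direction under both antibodies (800 higher and 209 lower in trial 2), and 31 differed in opposite directions. ZP2, a protein of the egg coat, shows it: its signal was 1924 and 5383 in anti-DJ1 embryos of trials 1 and 2 and 1730.0 and 4596 in IgG embryos. The brightest probe set of KPNA2, an importin that carries proteins into nuclei, went the other way, with 33939.6 and 18263 against 36447 and 22358. Another probe set of KPNA2 was higher in trial 2, with 1832 and 7801 against 2181 and 6829.7, so the trials gave no single direction for this gene. At these probe sets the antibody groups overlapped across trials, and within a trial they differed little, by 0.19 ± 0.12 (SE) for ZP2 and -0.20 ± 0.10 for the brightest one of KPNA2 on the log2 scale (limma, adjusted p = 0.921 and 0.883). In pooled embryos, fewer cells of a kind and less RNA per cell cannot be told apart. The 3′ to 5′ ratio of EF1A also differed between the trials, as given above, and its part in these differences was not tested.

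Within a trial the size of a difference followed the brightness of the probe set. With the tested probe sets in 5 bins by brightness, in the dimmest bin, with mean signals from 36.1 to 66.9, the median difference between the antibodies was 1.41-fold in trial 1 and 1.28-fold in trial 2, and 159 probe sets differed at least 1.5-fold the same way against 165 in opposite ways. The next bin, up to 142, held 93 the same way and 58 opposite. In the brightest bin, with signals from 1330.4 to 33089.8, the median difference was 1.08-fold and 1.09-fold, and 1 probe set differed the same way and 1 opposite ways. The median 95% confidence interval reached 2.03-fold to either side in the dimmest bin and 1.197-fold in the brightest. Bright transcripts therefore had the narrowest intervals and the smallest differences.

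**Figure D2:**
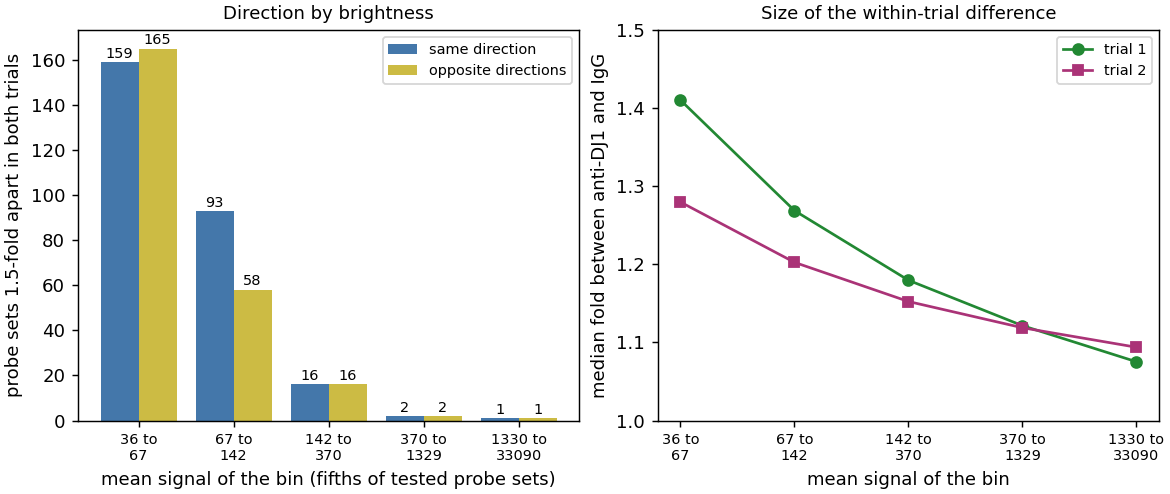
Counts of probe sets that differed at least 1.5-fold the same way or opposite ways in the 2 trials, and the median fold difference in each trial, in 5 bins of mean signal, with 2880 or 2879 probe sets per bin. The counts drop from 159 and 165 in the dimmest bin to 1 and 1 in the brightest.

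Ssc.7628.1.A1_at, which the annotation used here does not name, had signals of 9951 and 2608 in the anti-DJ1 pools of trials 1 and 2, 5751 and 1374 in the IgG pools, 1482 in non-injected embryos and 16552 in the donor cells. Each anti-DJ1 pool was higher than the IgG pool of its trial, and across trials the groups overlapped. It rose by 0.86 ± 0.12 on the log2 scale (limma, adjusted p = 0.0374), and the trials gave 0.79 and 0.92. The call was lost with dim probe sets kept in (adjusted p = 0.0840), with all 6 arrays in the fit (0.0882), and without the mean-variance trend (0.941) or the term for the trial (0.99998). It was also lost in each of the 4 fits without 1 array, which cannot hold that term and in which 0 probe sets passed. It held without a pseudocount, with a larger one, under quantile normalization, with a common 75th percentile and in the upper 40% of probe sets.

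Among the upper 40% of probe sets by mean signal, 3 differed by 2-fold or more with the same sign in both trials, and none of them has a gene name in the annotation used here. They were singled out after their values were seen. The one furthest apart had signals of 46.7 and 111 in the anti-DJ1 pools and 199 and 336 in the IgG pools, a difference of -1.78 ± 0.27 in log2 (SE, limma, adjusted p = 0.0733). Both anti-DJ1 pools lay below both IgG pools, and this probe set passed the threshold with a pseudocount at the 25th percentile (adjusted p = 0.0152), quantile normalization (0.00658), a common 75th percentile (0.0308) or the upper 40% of probe sets tested alone (3.84e-07). Another stood at 49.1 and 96.01 against 153 and 218, also with no overlap (-1.35 ± 0.30, limma, adjusted p = 0.483, and 0.00252 with the upper 40% tested alone). The last was higher in anti-DJ1 embryos, 241 and 139 against 109 and 62.5 (1.10 ± 0.28, limma, adjusted p = 0.540, and 0.0302 with the upper 40% tested alone). With only the upper 40% tested, 41 probe sets passed higher (0.427%) and 14 lower (0.146%) of 9600. In that fit the variance came only from probe sets of like brightness. A probe set's own disagreement between trials did not enter its p-value, so small p-values there are weak support. Of these 55, 49 had the same sign in both trials, 11 differed at least 1.5-fold in both, and 22 were under 1.2-fold in a trial or opposite in sign.

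Of the 10 named genes with the smallest p-values, 4 lay in the brightest bin: HNRNPH1, SET, CHEK1 and PPP1R12A. None of them passed the threshold. HNRNPH1, a regulator of splicing, had signals of 5418 and 4178 in the anti-DJ1 pools of trials 1 and 2, and of 3871 and 2212 in the IgG pools. From here on, signals stand in that order, the anti-DJ1 pools of trials 1 and 2 against the IgG pools of trials 1 and 2. The share of all probe sets whose groups did not overlap was not counted. A lack of overlap, above and below, therefore only describes the values of probe sets with the same sign in both trials. Choosing by that sign already favours a lack of overlap, so it is no support for a difference. Both anti-DJ1 pools of HNRNPH1 lay above both IgG pools (0.70 ± 0.13, SE, limma, adjusted p = 0.250). SET, a histone chaperone that inhibits the phosphatase PP2A, stood at 5348 and 2166 against 9067 and 2999, lower within each trial (-0.61 ± 0.12, adjusted p = 0.361), and its second tested probe set also had a negative change (-0.33). CHEK1, the kinase that halts the cycle when replication stalls, stood at 9299 and 8025 against 7273 and 4962 with no overlap (0.52 ± 0.12, adjusted p = 0.483), while its second probe set had a change of -0.14. PPP1R12A, which targets a phosphatase to myosin, had 13485 and 4688 against 10462 and 3262 (0.44 ± 0.11, limma, adjusted p = 0.530), with -0.08 and 0.05 at its other probe sets. The trials had opposite signs at the second of these (0.45 and -0.34). With the upper 40% tested alone, where a probe set's own spread did not enter, these 4 genes passed (limma, adjusted p = 7.85e-06, 0.000193, 0.0030 and 0.0289 in the order given). Under quantile normalization HNRNPH1 (limma, adjusted p = 0.0342) and SET (0.0430) did. The other 6 of the 10 were NECAB3, CD151, ITFG2, FITM1 and CXCR4, described below, and ATG4B, a protease of autophagy, which had 15.9 and 128 against 153 and 191 and so differed mainly in trial 1 (-2.95 and -0.56 in log2).

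Genes named for the largest change were those at least 1.5-fold apart in both trials with the higher group above its Tag controls, 23 higher and 22 lower in anti-DJ1 embryos. Over all genes tested, 35 of 5205 were at least 1.5-fold higher in both trials (0.672%) and 39 were lower (0.749%). None of the 45 named genes passed the threshold, with adjusted p from 0.361 to 0.888 among those higher and from 0.530 to 0.888 among those lower (limma). Only 9 of the 23 and 7 of the 22 lay in the upper 40% by mean signal.

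The 9 bright genes that were higher in anti-DJ1 embryos were CXCR4, PTPRA, PLAC8, SLC35B3, TMEM55B, DRG1, CADPS2, LOC100621931 and NECAB3. CXCR4, the receptor of the chemokine CXCL12, had 319 and 525 in the anti-DJ1 pools against 183 and 314 in the IgG pools, 1.69-fold higher (adjusted p = 0.546, limma). PTPRA, a receptor phosphatase that activates Src kinases, had 153 and 319.9 against 81.5 and 209. In these genes each anti-DJ1 pool exceeded the IgG pool of its trial, and for PTPRA the IgG pool of trial 2 exceeded the anti-DJ1 pool of trial 1. PLAC8, a small cysteine-rich protein, behaved likewise, 118 and 381 against 64.4 and 216. SLC35B3, a Golgi transporter of the sulphate donor PAPS, had 149 and 143 against 86.8 and 79.9, and TMEM55B, a lysosomal membrane protein, 166 and 140.2 against 94.4 and 89.8. In these 2 the groups did not overlap. DRG1, a GTPase that binds ribosomes, had 161 and 185 against 81.7 and 118, but its other probe set had a change of -0.30. CADPS2, which primes secretory vesicles, had 266 and 297 against 176 and 141, with -0.017 and 0.35 at its other probe sets. At the first of these the trials had opposite signs (-0.21 and 0.18). LOC100621931 stood at 311 and 293 against 184 and 159. NECAB3, a calcium-binding protein, had the highest fold of the 23 but rested mainly on trial 2: its signals were 145 and 506 against 75.6 and 22.5, the last below its array's Tag control, and trial 1 gave 0.90 and trial 2 4.24 on the log2 scale.

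The 7 bright genes that were lower were FKBP4, GOLGA2, MAP4, KLC4, PPP3CA, CTR9 and PIGM. FKBP4, a partner of the chaperone HSP90, had 67.5 and 105 in the anti-DJ1 pools against 138 and 191 in the IgG pools, 1.88-fold lower (limma, adjusted p = 0.724) with no overlap. GOLGA2, a structural protein of the Golgi, was 1.74-fold lower, 131 and 166 against 244 and 276 (adjusted p = 0.609), again with no overlap. Its other probe set had opposite signs in the trials (0.16 and -0.19 in log2, with a mean of -0.012). MAP4, which stabilises microtubules, had 255 and 142 against 386 and 251, and KLC4, a kinesin light chain, 159 and 232 against 240.4 and 362. Other probe sets had changes of 0.05 and -0.27 for MAP4 and 0.57 for KLC4. PPP3CA, the catalytic subunit of calcineurin, had 172 and 47.6 against 273 and 79.5. CTR9, of the PAF1 complex that travels with RNA polymerase II, had 48.8 and 135 against 106 and 208. PIGM, an enzyme of GPI anchor synthesis, had 82.3 and 147 against 146 and 226, and 0.29 at its other probe set. In these 3 each anti-DJ1 pool was below the IgG pool of its own trial, and the groups overlapped across trials.

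**Figure D3:**
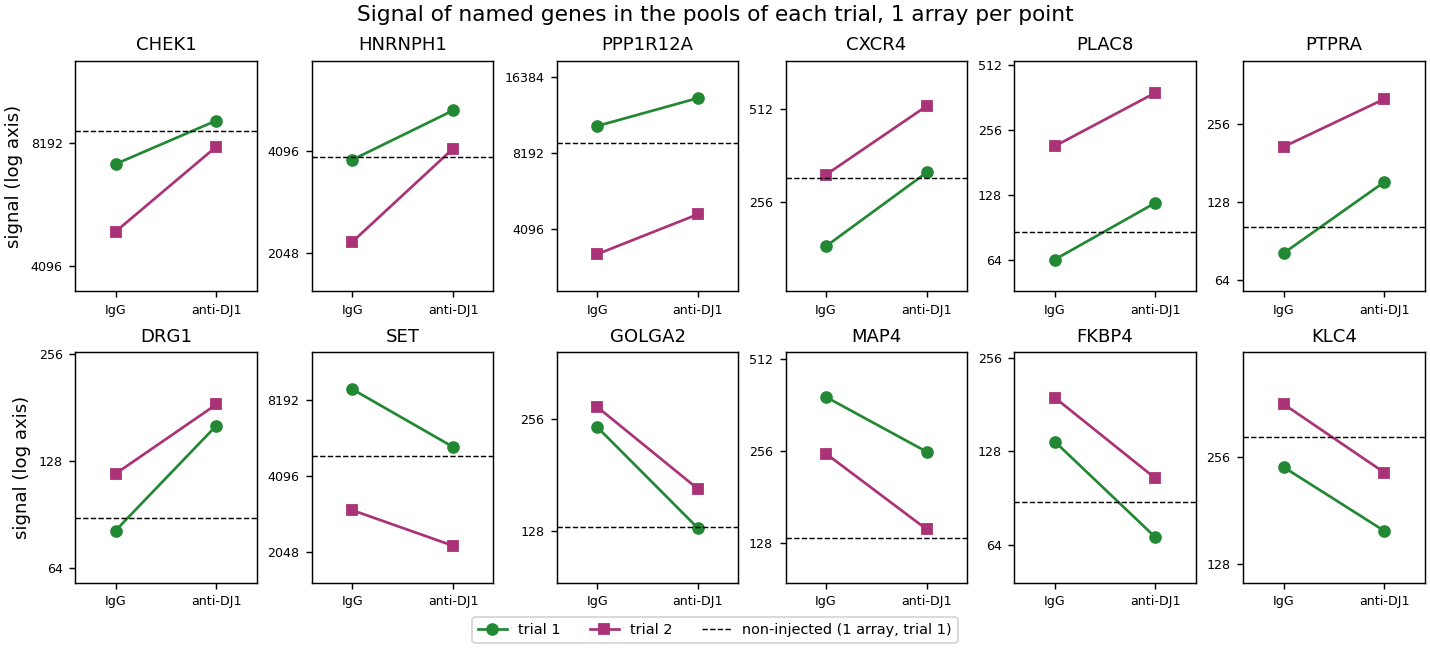
Signal (log axis) of 12 named genes in the IgG and anti-DJ1 pools of trial 1 (circles) and trial 2 (squares), 1 array per point, with the non-injected array as a dashed line. The lines of both trials run the same way in each panel because genes were named only if they had the same sign in both trials. In SET, PPP1R12A, PLAC8 and PTPRA the trials lie further apart than the antibodies.

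The remaining genes named for the largest change were dim, with the lower group near or below the Tag controls. Of the 14 that were higher in anti-DJ1 embryos, CD151, a tetraspanin of the cell surface, had similar values in both trials, 117 and 112 against 37.7 and 34.9, 1.54 ± 0.39 higher in log2 (limma, adjusted p = 0.530). DUOX2, an oxidase that makes hydrogen peroxide, had 107 and 107 against 51.01 and 38.7. SERPINB1, a protease inhibitor, had 147 and 124 against 45.2 and 62.5. At these probe sets of the 3 genes the groups did not overlap. SERPINB1 had a brighter probe set with opposite signs in the trials, 398 and 733 against 442 and 638 (-0.15 and 0.20 in log2). ITFG2 stood at 126 and 103 against 12.04 and 47.6, and IVD, an enzyme of leucine breakdown, at 97.5 and 55.7 against 40.3 and 14.3. The other probe sets of IVD had mean changes of 0.19, 0.77 and 0.13, the first and last with opposite signs in the trials. Where both arrays of the lower group were under their Tag controls, a lower bound was set from those controls, which gave at least 2.33-fold higher for COMMD4 and at least 2.00-fold higher for MXRA8. ATRIP, the partner of the checkpoint kinase ATR, and CDC42BPA, a kinase acting on myosin, were higher at the probe set named (1.08 and 0.94), while their other probe sets had changes of -0.72 and -0.04. At that of CDC42BPA the trials had opposite signs (-0.41 and 0.33). The other 5, GCG, IFN-DELTA-1, SFTPA1, YBEY and LOC100523909, had signals of at most 130.4 on any of the 4 arrays at the probe set named. A brighter probe set of YBEY had opposite signs in the trials (-0.02 and 0.19).

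Of the 15 dim genes that were lower, 7 were under the Tag control on both anti-DJ1 arrays. FITM1, which packs fat into lipid droplets, had 9.96 and 19.2 in the anti-DJ1 pools against 102 and 86.02 in the IgG pools, at least 2.58-fold lower (limma, adjusted p = 0.530). Bounds for the other 6 were at least 2.26-fold lower for LAT, 2.25-fold for RGCC, 2.19-fold for SCARB1, 1.94-fold for HGH1, 1.93-fold for GSC and 1.63-fold for EIF4EBP2. SCARB1 takes up cholesterol from lipoproteins, GSC is a homeobox factor of gastrulation and EIF4EBP2 restrains cap-dependent translation. HGH1 and EIF4EBP2 had smaller negative mean changes at other probe sets (-0.25 for HGH1, -0.28 and -0.14 for EIF4EBP2). The trials had opposite signs at the last of these (0.05 and -0.32). ACAN, the cartilage proteoglycan aggrecan, had 15.8 and 60.2 against 108 and 120.2, and HSPB2, a small heat shock protein, 37.1 and 16.7 against 84.3 and 101. In both the groups did not overlap. SMPD1, the acid sphingomyelinase of lysosomes, had 39.96 and 38.7 against 81.2 and 81. Its other probe set had opposite signs in the trials (0.42 and -0.10, with a mean of 0.16). HTT, the huntingtin gene, had 22.6 and 57.4 against 52.1 and 119. The other 4 were FBP2, SYT2, CXCL14 and PKDCC, with signals from 13.1 to 50.3 in anti-DJ1 and from 31.1 to 128 in IgG embryos.

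A gene with several probe sets gives a further check. For 1251 genes with 2 or more tested probe sets, the brightest 2 had the same sign of change in 672 (53.7%). Where both had kept their own sign in both trials, in 353 genes, the 2 probe sets had the same sign in 202 (57.2%). Separate probe sets of a gene share the RNA and the array, so they are no replicates of each other.

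The gene lists describe groups of genes around DJ-1, and no member of any of the 29 lists passed the threshold. PARK7 had signals of 446 and 1203 in the anti-DJ1 pools and 522 and 1272 in the IgG pools, a change of -0.15 ± 0.16 (SE, limma, adjusted p = 0.953). The list of DJ-1 partners and AKT or ASK1 signalling held 12 tested genes and counted PARK7 itself. Of these, 8 (66.7%) were lower in both trials, PARK7 among them, and 1 (8.33%) was higher. The shares of all genes were 27.8% and 24.7%. Medians of the list were -0.07 in trial 1 and -0.12 in trial 2. Over all 5205 genes the medians were 0.008 and -0.03. UCHL1, a neuronal and oocyte deubiquitinase, had 7029 and 11153 against 8106 and 13126. PINK1, the kinase that marks damaged mitochondria, had 315 and 448 against 345 and 563. PDPK1, which activates AKT, had 5079 and 4378 against 5485 and 4773. In all 3 genes the change averaged over both trials was small, between -0.23 and -0.12 on the log2 scale (limma, adjusted p from 0.862 to 0.945). The largest within a trial was -0.33, for PINK1 in trial 2.

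Genes of death and of p53 went no single way. Of 20 p53 genes and targets, 4 were higher and 3 lower in both trials, and of 12 genes of the apoptosis machinery 3 were higher and 4 lower. GADD45B, a stress-induced growth arrest gene, had 63.2 and 75.5 against 48.9 and 49.4. CCNG1, a cyclin induced by p53, had 6874 and 6230.3 against 6374 and 5076. The death receptor TNFRSF1A had 147 and 163 against 276 and 212, lower with no overlap (-0.63 ± 0.24, limma, adjusted p = 0.830). BCL2L11, which starts mitochondrial death, was dim, 59.3 and 44.96 against 32.1 and 19.7. FDXR, a p53 target of the mitochondria, was lower at its brightest probe set (-0.25) and had a change of 1.25 at another.

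Enzymes that handle peroxide and glutathione split evenly, with 10 of 30 higher, 10 lower and 10 opposite. GCLM, the regulatory subunit of the enzyme that begins glutathione synthesis, had 259 and 452 against 358 and 585. GPX4, which reduces lipid peroxides, had 72.4 and 148 against 126 and 189, and its other probe set had a change of -0.53. Both genes were lower within each trial and overlapped across trials. NQO1 and HMOX1, classical targets of NRF2, were higher in both trials by small amounts, 0.35 ± 0.34 and 0.31 ± 0.49 (limma, adjusted p = 0.945 and 0.980). EPHX1, an epoxide hydrolase and another such target, had the largest change of the list, at 14.2 and 123 against 115 and 149 (-1.47 ± 0.47, adjusted p = 0.734), most of it in trial 1. TXNRD1, the thioredoxin reductase, had 939 and 989 against 1099 and 1348 (-0.34 ± 0.15, adjusted p = 0.856), with no overlap. Over the NRF2 and iron or pentose phosphate list, 5 of 14 were higher and 4 lower, with medians of 0.07 and -0.0046.

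In the cell cycle list, 1 of 20 genes was higher in both trials and 7 were lower. CDC25C, the phosphatase that starts mitosis, had 78.7 and 76.99 against 54.5 and 57.2, and CKS1B, a subunit of cyclin-dependent kinases, 8163 and 11474 against 10892 and 12584. The median of the list was 0.03 in trial 1 and -0.14 in trial 2, so that its direction differed between trials. Of 18 genes of the DNA damage response, 5 were higher and 5 lower, and the brightest probe sets of LIG3 and XRCC5, which join and protect broken ends, had changes of -0.23 and -0.20 (adjusted p = 0.926 and 0.933, limma). Other probe sets of LIG3 had mean changes of 0.04, -0.25 and 0.13, each with opposite signs in the trials. Of 20 replication genes 3 were higher and 4 lower. POLD2, a subunit of DNA polymerase delta, had 65.9 and 228 against 134 and 299.

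Of 19 maternal transcripts 3 were higher and 5 lower, and of 9 pluripotency and early lineage genes 3 were higher and 2 lower. DPPA5, an RNA-binding protein of the early embryo, had 3052 and 6294 against 2329 and 5716, higher within each trial (0.26 ± 0.12, limma, adjusted p = 0.857). TFAP2C, a trophoblast factor, had 332 and 348 against 367 and 436. TEAD4, another trophoblast factor, had the highest change of its list (1.08), all of it from trial 1, with 44.6 and 100.2 against 6.29 and 101. Its sign was not the same in both trials. Among 33 chromatin genes 7 were higher and 8 lower. EHMT2, which methylates histone H3, had 1294 and 1296 against 898 and 1127, higher with no overlap (0.36 ± 0.15, adjusted p = 0.831). HDAC6, a cytoplasmic deacetylase, had a change of 0.90 at its brightest probe set. Another probe set had opposite signs in the trials (-3.04 and 1.10 in log2, with a mean of -0.97). CHAF1A, which assembles nucleosomes behind the fork, had 136 and 179.7 against 157 and 233. Of 14 imprinted genes 4 were higher and 4 lower, with IGF2R, the receptor that clears IGF2, at 24.6 and 86.2 against 67.1 and 133.

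Cytosolic ribosomal protein genes leaned higher, with 25 of 56 (44.6%) higher in both trials and 3 lower (5.36%), beside 24.7% and 27.8% of all genes, and medians of 0.10 and 0.14. RPS21 had 350.4 and 593 against 268 and 382, and RPL31 274 and 381 against 162 and 271, with a change of 0.53 at its other probe set. Mitochondrial ribosomal proteins did not lean that way, with 6 of 51 higher and 15 lower. MRPS21 had 234 and 575 against 342 and 681. Respiratory chain genes were higher in 15 of 50 and lower in 8, and NDUFS3, a core subunit of complex I, had 2322 and 1383 against 1879.8 and 1079 (0.33 ± 0.13, limma, adjusted p = 0.831). Translation factors and tRNA synthetases were higher in 14 of 59 and lower in 21, and EIF6, which keeps ribosomal subunits apart, had 206 and 504 against 261 and 635. In RPL31 the groups did not overlap, by a narrow margin, and in the other examples they overlapped across trials.

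**Figure D4:**
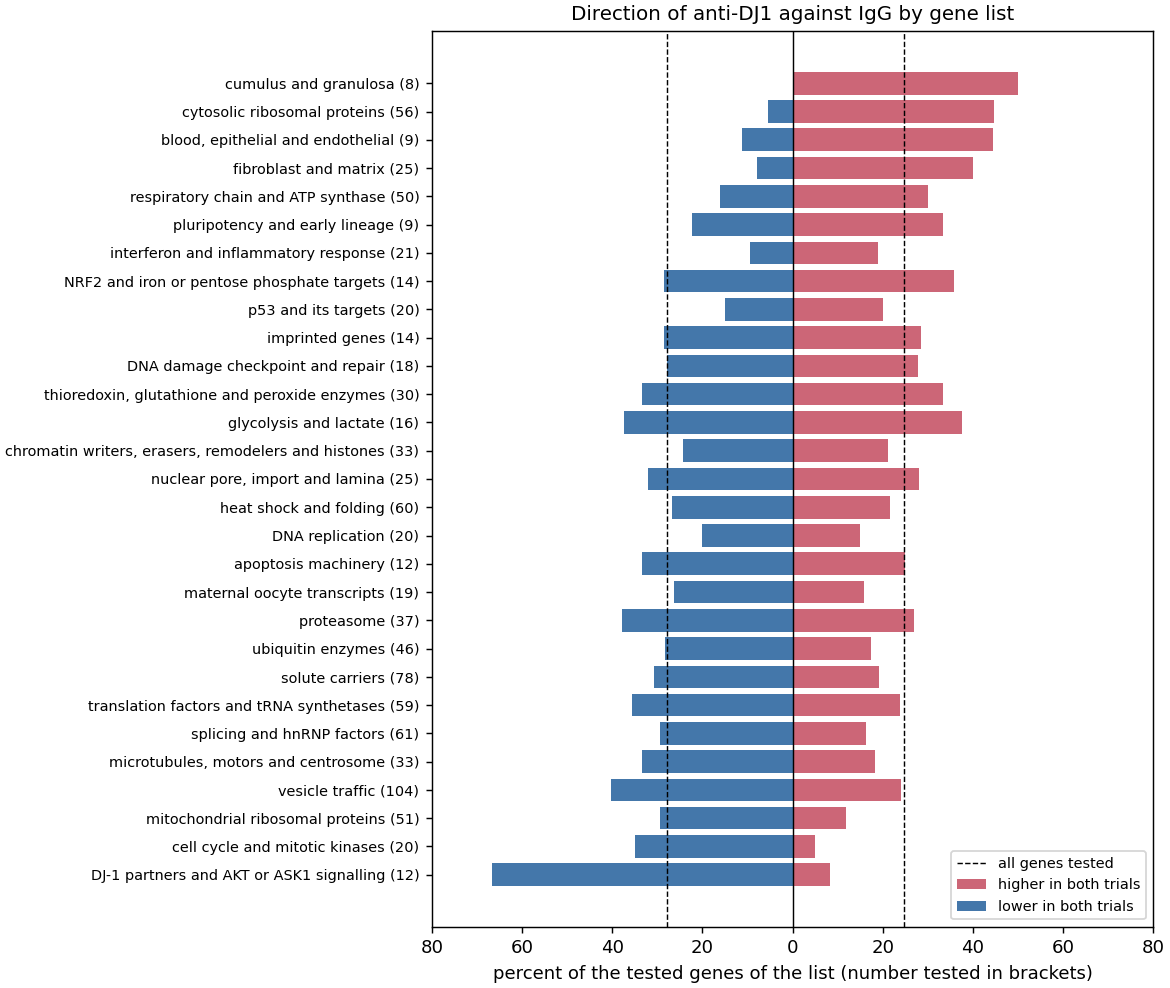
Share of the tested genes of each list that were higher (to the right) or lower (to the left) in anti-DJ1 embryos in both trials, with the number tested in brackets. For all 5205 genes the shares were 24.7% higher and 27.8% lower, and cytosolic ribosomal proteins (25 higher and 3 lower of 56) lie furthest from them among lists of more than 25 genes.

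Protein turnover and RNA processing lists held both directions. Of 37 proteasome genes 10 were higher and 14 lower. PSMC6, an ATPase of the regulatory particle, had 187 and 157 against 132 and 61.6, and PSMB7, a catalytic subunit, 213 and 224 against 279 and 295. Neither overlapped between groups, and they went opposite ways (0.89 ± 0.30 and -0.38 ± 0.21, limma, adjusted p = 0.769 and 0.899). Ubiquitin enzymes were higher in 8 of 46 and lower in 13, and splicing factors higher in 10 of 61 and lower in 18. Heat shock and folding genes were higher in 13 of 60 and lower in 16, and DNAJC5, a vesicle co-chaperone, had 75.01 and 80.3 against 46.1 and 46.4. Of 16 genes of glycolysis 6 were higher and 6 lower, and TPI1 had 170.5 and 259.5 against 216 and 326.

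Of 104 vesicle traffic genes 42 (40.4%) were lower and 25 (24.0%) higher in both trials, and of 78 solute carriers 24 (30.8%) were lower and 15 (19.2%) higher, beside 27.8% and 24.7% of all genes. The solute carriers thus lay near the shares of all genes. STX10, a syntaxin of the Golgi, had 56.5 and 139 against 83.5 and 205, while RAB3A and VAMP2, which act in regulated secretion, were higher, 294 and 369 against 195 and 268 for RAB3A. SLC25A11, the mitochondrial oxoglutarate carrier, had 32.5 and 71.8 against 62.3 and 143. Of 33 genes of microtubules, motors and centrosome 6 were higher and 11 lower, and CENPB, which binds centromeric DNA, had 66.9 and 144 against 120.1 and 202. Nuclear pore, import and lamina genes were higher in 7 of 25 and lower in 8. LMNB1, the lamin B of early nuclei, had 4958 and 2291 against 2883 and 2052, a change of 0.78 in trial 1 and 0.16 in trial 2.

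Markers of other cells were measured on the same arrays. Of 8 measured fibroblast markers 7 lay above the Tag control on all 4 arrays. The signals of all 8 summed to 3266 and 2736 in anti-DJ1 embryos, 2998 and 2747 in IgG embryos and 93902 in the donor cells. In the donor cells 6 of the 8 lay above the Tag control, the highest being VIM (31965), SPARC (29989.5) and FN1 (24455). COL1A2 and COL3A1 had 459 and 584 there. DCN and LUM, at 5.58 and 1.71 in the donor cells, did not mark them. In the wider fibroblast and matrix list 10 of 25 genes were higher in anti-DJ1 embryos in both trials and 2 were lower, and FBN1, a fibrillin of elastic fibres, had 519.9 and 635 against 366 and 527. Of 10 measured cumulus and granulosa markers 3 lay above the Tag control on all 4 arrays. The signals of all 10 summed to 1326 and 1950.0 in anti-DJ1 embryos, 1679 and 1739 in IgG embryos and 12876 in the donor cells. Of these 10 markers, dim ones included, 6 were higher in anti-DJ1 embryos in both trials and 2 were lower. In the cumulus list, 4 of 8 tested genes were higher (50.0%) and 0 were lower (0%). INHA, an inhibin subunit of granulosa cells, had 118 and 226 against 40.3 and 153. KRT8, a keratin, had 116 and 211 against 60.9 and 164, and 9907 in the donor cells, so it did not mark cumulus cells alone. INHBA, the brightest of the 10 markers, went opposite ways in the trials, 975 and 1371 against 1495 and 1347. No marker was listed at 0. HBB, the one blood marker above the Tag control on all 4 arrays, had 2045 and 1220.0 against 1831 and 982, and 922 in the donor cells. In the blood, epithelial and endothelial list 4 of 9 genes were higher (44.4%) and 1 was lower (11.1%). The part of these markers in the differences between the groups was not tested. Of 21 interferon and inflammatory genes 4 were higher and 2 lower, and EIF2AK2, the kinase that senses double-stranded RNA, had 999 and 703 against 851 and 552.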

How the data were processed

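RNA from each pool was extracted (Picopure kit) and labelled with biotin in 2 cycles, per the labels' protocols. The authors deposited 1 linear intensity per probe set, and the submitters' processing notes name MAS5. The version, scaling target and detection calls of MAS5: not given in the sources used here. Of 24123 probe sets, 124 controls were left out of the tests. The platform annotation, which can be old, gave a single symbol to 10069 of the other 23999, several to 198 and none to 13732.

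Values were set to log2(signal + 4.57), the 10th percentile of all signals, with no further scaling. Probe sets in the upper 60% by mean over the 4 arrays were tested (14399, mean signal above 36.1) with limma 3.58.1 (lmFit, then eBayes with its mean-variance trend, R 4.3.3), two-sided, on group and trial, with p adjusted by Benjamini-Hochberg and called under 0.05. The fit left 1 residual degree of freedom, to which moderation added 13.91. The script was tested on simulated data. The number of arrays limits the precision. The p-values rest mostly on a spread between these pools that is shared over probe sets of like brightness, and little on a probe set's own spread. Trial is a term because, in the design text, the control of each trial is its own IgG array. Arrays of 1 trial deviated together from their group means (r = 0.602 over the tested probe sets, which are no independent replicates).

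The highest of 17 Tag controls per array marked background. Bounds compare the mean log2 signal of the higher group with that mark on the 2 arrays of the lower group. Named genes were PARK7, up to 15 per direction with the largest smaller within-trial ratio of at least 1.5-fold and the higher group above background, up to 10 per direction by the same rule in the upper 40%, the 10 with the smallest p among those of the same sign, and up to 3 per list. TEAD4, EPHX1 and TXNRD1 are outside the rule and were added after their values were seen. Lists took the brightest probe set of each gene and had no test. The comparison, the lists and the named-gene rule were chosen with earlier results of these data known. Alternatives covered the pseudocount, filter, scaling, arrays in the fit, trend, trial term, fold and arrays left out. No genome was used here, so no positions are given.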

Additional observations from a re-analysis of the deposited data

How the results depend on the processing

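The count of probe sets past the threshold (1) was 1 without a pseudocount, 2 with a pseudocount at the 25th percentile or a common 75th percentile (1 higher and 1 lower in each), 5 under quantile normalization (3 higher, 2 lower) and 55 with the upper 40% tested alone. It was 0 with no filter on dim probe sets, with all 6 arrays and with no mean-variance trend (limma, lowest adjusted p = 0.0840, 0.0882 and 0.941, with 1305, 838 and 662 probe sets at an unadjusted p under 0.05). For the upper 40% the estimated prior degrees of freedom were infinite, so each probe set took the trend's variance. The fit without the replicate block gave 0 (63 at an unadjusted p under 0.05), and leaving out 1 array at a time gave 0 to 0 (92 to 286), with a lone array assumed to vary like the other group. The count of probe sets at least 2-fold apart the same way (40) was 17 with the larger pseudocount, 493 with no filter (496 went opposite ways), 3 in the upper 40% and 271 at 1.5-fold, and 38 to 60 under the other 5 alternatives. The 133 named genes kept their sign in each alternative that measured them, 71 of them in the upper 40% and 120 with all 6 arrays. This was largely set in advance and is no sign of robustness. The named genes all had the same sign in both trials. The filter, the trend, the trial term and the 2 added arrays leave an estimate as it is. Calls were gained by NECAB3 (adjusted p = 0.0342) under quantile normalization, and by NECAB3 (6.65e-14) and LMNB1 (0.0333) in the upper 40%, besides those given above. Of 29 list medians, 28 kept their sign without a pseudocount, 25 under quantile normalization and 27 with a common 75th percentile, and with only 1 of the trials 21 to 22 did. The cause of these shifts was not tested.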

Other observations

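In the upper 40% of probe sets, some transcripts were even on 3 of the 4 arrays (within 1.5-fold) and at least 2-fold apart on the fourth. The array that stood apart was low in 13 probe sets for the IgG pool of trial 2, in 12 for the anti-DJ1 pool of trial 1, in 10 for the IgG pool of trial 1 and in 1 for the anti-DJ1 pool of trial 2. It was high in 4, 0, 0 and 6 probe sets in the same order. KIF5B, a kinesin heavy chain, had signals of 424 and 394 in anti-DJ1 embryos of trials 1 and 2, 397 in IgG embryos of trial 1 and 54.5 in IgG embryos of trial 2. FKBP6, a co-chaperone of germ cells, had 11710.2 and 11607 in anti-DJ1 embryos, 11713 in IgG embryos of trial 1 and 6027 in IgG embryos of trial 2. The non-injected embryos stood at 12888 and the donor cells at 11.03. Neither gene passed the threshold (limma, adjusted p = 0.609 for KIF5B and 0.785 for FKBP6), and both were chosen after their values were seen. Such a difference belongs to 1 pool and was not repeated in the other trial.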
